A study of Mus musculus with 2 samples.

Results

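The genes described here are 42 genes that make fatty acids and store them as triglyceride: the enzymes of lipogenesis, desaturation, elongation and acyl-CoA synthesis, those that assemble glycerolipids, and 3 of their regulators. They are a list of named genes of the pathway, drawn up with earlier results of these data known, and membership did not depend on a measured value. Of the 42 genes, 40 had a probe set that carried their symbol alone, out of 19938 genes named in this way on the array. Acsl1, a long-chain acyl-CoA synthetase, was not analysed here, and Acsl3, another, was left out because its probe set also carried the symbol of a second gene. White adipose tissue was taken from mice aged 24 weeks after 20 weeks on a high-fat diet, 1 array labelled as a control mouse (Oma1_WT) and 1 as an Oma1-deficient mouse (Oma1_KO). Total RNA was hybridised to Affymetrix Mouse Gene 1.0 ST arrays, which probe a transcript along its length. The fat depot, the strain, the way in which Oma1 was disrupted and whether RNA of several mice was pooled are not given in the labels.

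Fat cells build fatty acids from acetyl-CoA in the cytosol, with NADPH as the reducing agent, and fatty acid synthase joins the carbon units into palmitate. Elongases and desaturases of the endoplasmic reticulum then lengthen the chain and insert double bonds, and acyl-CoA synthetases activate fatty acids that were made in the cell or taken up. Acyltransferases and phosphatases attach the acyl chains to a glycerol backbone in a series of steps that ends with triglyceride, the lipid that fills the fat droplet. The transcription factors encoded by Srebf1 and Mlxipl are known to raise the transcripts of many of these enzymes in response to insulin and to glucose.

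With 1 array per genotype there was no spread between mice and no test of the genotype, so each difference below has no replicate check and is a description of 2 arrays. Differences are of log2(intensity + 1), Oma1_KO minus Oma1_WT, a scale that understates the change of dim probe sets. Over 545 genes with exactly 2 probe sets, the technical SD of the difference read by 1 probe set was 0.17. It is the SD of the disagreement between the 2 probe sets, divided by the square root of 2. It covers probe sets on the same 2 RNAs only and holds no spread between mice. Members were counted where their mean over both arrays was at least the array-wide median intensity of 83, which 35 of the 40 passed. Sizes of 1.2-fold (0.26 on the log2 scale) and 1.5-fold (0.58) were used to describe differences. Oma1 itself read 187 in Oma1_WT and 155 in Oma1_KO, a difference of -0.27. It had 1 probe set, and since the labels do not say where the gene was disrupted, this value is no check of the genotype. Of 9 measured markers of white adipocytes, 9 passed the filter, among them Adipoq, which encodes adiponectin, with 6832 and 5255.

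Above the intensity filter, the synthesis genes as a whole lay where all genes lay. Their median difference was -0.06, and that of the 11399 genes above the filter was also -0.06. Of the 35 members, 23 (65.7%) read lower in Oma1_KO and 12 (34.3%) higher, beside 62.3% and 36.6% of all genes above the filter. The split depended on the scaling, as did that of all genes. After quantile normalisation or a loess correction 19 were lower and 16 higher, beside 52.6% and 52.5% of all genes lower. When differences were centred on the median gene, 17 were lower and 18 higher, beside 50% of all genes lower. With no intensity filter 24 of the 40 measured members were lower and 16 higher, beside 47.9% of all genes lower. The medians were then -0.04 for the members and 0.00 for all genes. At least 1.2-fold lower were 7 members (20% of them, beside 14.6% of all genes): Pnpla3, Mlxipl, Acacb, Scd2, Lpin1, Acsl4 and Me1. At least 1.2-fold higher was 1 member, Mogat2 (2.86%, beside 7.13%). None of the 35 members reached 1.5-fold in either direction, beside 1.74% of all genes lower and 1.23% higher. Of the 8 members past 1.2-fold, Pnpla3, Mlxipl, Acacb, Scd2 and Mogat2 were past it under each of the 5 alternatives of scaling, pseudocount and probe set choice. How many of all genes stayed past it in this way was not counted. Me1, at -0.27, and Aacs, at -0.26, lay just inside and just outside the 1.2-fold size.

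**Figure D1:**
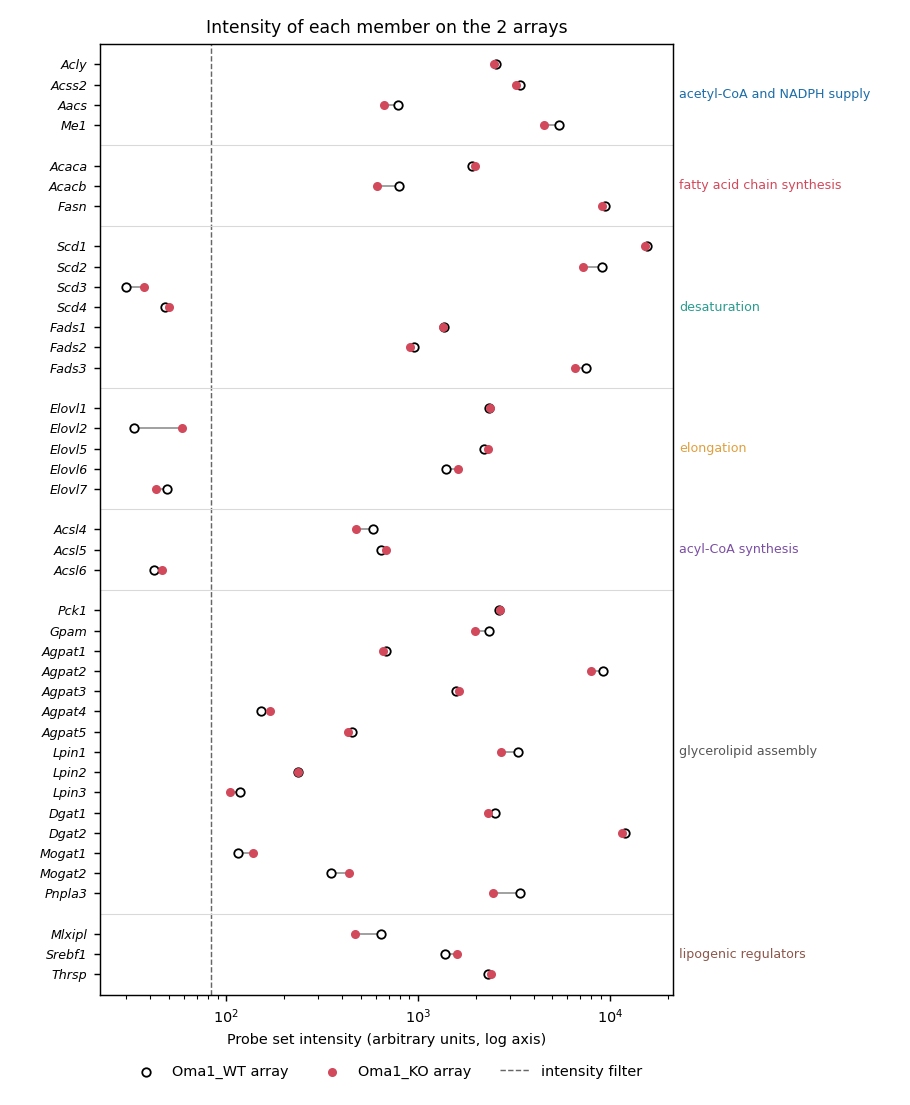
Probe set intensity (arbitrary units, log axis) of the 40 measured members on the Oma1_WT array (open points) and the Oma1_KO array (filled points), ordered by step, with the intensity filter of 83 as a dashed line. The 2 points of most members lie close together, and Scd3, Scd4, Elovl2, Elovl7 and Acsl6 lie left of the filter on both arrays; probe sets differ in brightness for reasons other than transcript level, so rows are not to be compared with each other.

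The 3 regulators lay on both sides of 0. Mlxipl, which encodes the carbohydrate response factor ChREBP, read 643 in Oma1_WT and 469 in Oma1_KO, a difference of -0.45 (1.37-fold lower), and 4.18% of all genes above the filter had a lower difference. Srebf1, which encodes the sterol regulatory element-binding protein that drives fatty acid synthesis, read 1380 and 1590, a difference of 0.20 in the other direction. Thrsp, also called Spot 14, a small protein of lipogenic tissues whose transcript responds to thyroid hormone and carbohydrate, read 2310 and 2402 (0.06). The array does not separate the isoforms of Mlxipl or of Srebf1 here, since each had 1 probe set.

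Regulatory sequence is shown for the 3 members with the lowest differences, Mlxipl, Pnpla3 and Acacb, and for Mogat1, which read higher and has an entry in the table where Mogat2 has none. This choice was made after their values were seen. Each sequence is the 250 bases upstream of a transcript start in RefSeq's annotation of GRCm38.p6, on the plus strand, 5′ to 3′. Mlxipl has a start that follows chr5:135089640-135089889 and another that follows chr5:135106641-135106890. The Pnpla3 window is chr15:84167566-84167815, that of Acacb is chr5:114165268-114165517, and that of Mogat1 is chr1:78510810-78511059. Capitals mark exact matches, on either strand, to the E-box CACGTG, the sterol element-like TCACNCCAC, the CCAAT box CCAAT (which reads ATTGG on the other strand) and the TATA box TATAAA; no matches overlapped in the windows shown.
Mlxipl, upstream start: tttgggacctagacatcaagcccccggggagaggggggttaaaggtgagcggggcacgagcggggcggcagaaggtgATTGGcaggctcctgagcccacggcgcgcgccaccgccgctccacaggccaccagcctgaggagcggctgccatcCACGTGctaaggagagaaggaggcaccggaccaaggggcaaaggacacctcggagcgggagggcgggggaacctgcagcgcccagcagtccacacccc
Mlxipl, downstream start: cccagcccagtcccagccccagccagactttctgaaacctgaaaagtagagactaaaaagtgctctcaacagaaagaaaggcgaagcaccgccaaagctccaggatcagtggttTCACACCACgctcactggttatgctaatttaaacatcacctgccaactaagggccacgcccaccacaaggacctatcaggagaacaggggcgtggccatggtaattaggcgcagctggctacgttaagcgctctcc
Pnpla3: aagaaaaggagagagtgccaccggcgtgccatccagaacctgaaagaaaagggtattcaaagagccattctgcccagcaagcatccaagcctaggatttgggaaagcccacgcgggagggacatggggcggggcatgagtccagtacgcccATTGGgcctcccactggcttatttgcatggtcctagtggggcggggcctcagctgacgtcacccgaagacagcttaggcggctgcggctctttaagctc
Acacb: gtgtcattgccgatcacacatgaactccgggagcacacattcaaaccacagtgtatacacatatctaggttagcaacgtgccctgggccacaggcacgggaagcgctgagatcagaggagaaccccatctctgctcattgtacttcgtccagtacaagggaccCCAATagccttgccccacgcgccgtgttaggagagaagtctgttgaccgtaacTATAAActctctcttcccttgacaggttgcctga
Mogat1: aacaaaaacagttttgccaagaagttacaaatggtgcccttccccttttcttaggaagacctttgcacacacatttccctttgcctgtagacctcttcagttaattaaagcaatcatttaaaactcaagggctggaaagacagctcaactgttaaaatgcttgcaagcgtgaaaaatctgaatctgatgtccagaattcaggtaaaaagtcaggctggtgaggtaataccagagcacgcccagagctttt

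The upstream window of Mlxipl held a CCAAT box, with its first base 173 bases before the start, and an E-box at 98 bases, and the downstream window held a TCACNCCAC match at 136 bases. Pnpla3 had a CCAAT box at 99 bases, Acacb a CCAAT box at 87 bases and a TATA box at 34 bases, and the Mogat1 window held none of the 4 motifs. In all, 35 of the 42 genes had 49 such windows, and 35 here counts genes with an entry, not those above the filter. An E-box was present in 3 of the 49 (6.12%), beside 6.02% of all 32851 windows of the same length. TCACNCCAC was present in 2 (4.08%, beside 1.05%), those of Mlxipl and Acsl1, and a CCAAT box in 21 (42.9%, beside 33.8%). A TATA box was present in 1 (2.04%, beside 12.4%), that of Acacb. A match describes these letters only and is not a binding site.

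The genes that supply acetyl-CoA and NADPH read lower in all 4 members, beside 62.3% of all genes above the filter. Their median was -0.17, beside -0.06 over all genes. Me1, the cytosolic malic enzyme that makes NADPH, had 2 probe sets, which read 5228 and 5670 in Oma1_WT and 4405 and 4653 in Oma1_KO. Both differed alike, by -0.25 and -0.29. Aacs, which activates the ketone body acetoacetate in the cytosol, read 787 and 659 (-0.26). Acly, which splits citrate into acetyl-CoA, read 2554 and 2484 (-0.04), and this turned to 0.01 after quantile normalisation and 0.02 when centred on the median gene. Acss2, which makes acetyl-CoA from acetate, read 3405 and 3223 (-0.08). The values of Acly and Acss2 were thus within the technical SD of 0.17 of 0, and those of Me1 and Aacs were not.

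In chain synthesis the 2 acetyl-CoA carboxylases differed from each other. Acacb, the carboxylase bound to mitochondria, whose malonyl-CoA restrains fatty acid entry for oxidation, read 790 in Oma1_WT and 607 in Oma1_KO, a difference of -0.38 (1.30-fold lower). Acaca, the cytosolic carboxylase that feeds fatty acid synthase, had 2 probe sets, with 1374 and 2650 in Oma1_WT and 1444 and 2696 in Oma1_KO, differences of 0.07 and 0.02. Fasn, which encodes fatty acid synthase, read 9468 and 9063 (-0.06), a value equal to the median of all genes. Of the step's 3 members, then, Acacb was the member past 1.2-fold, and Acaca and Fasn were within the technical SD.

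Among the desaturases Scd2 stood lowest. Scd1 and Scd2 encode stearoyl-CoA desaturases, which make oleate and palmitoleate. Scd1 read 15650 and 15303 (-0.03, or 0.03 when centred on the median gene), and Scd2 read 9088 and 7232, a difference of -0.33 (1.26-fold lower). Scd3 read 30 and 37, and Scd4 48 and 50, both under the filter on both arrays, where signal cannot be told from background. The 4 Scd genes are close copies, so a probe set of 1 may take signal from another, and how far this affected these values was not tested. Fads1 and Fads2, which desaturate polyunsaturated fatty acids, read 1355 and 1351, and 953 and 905 (-0.07). Fads3, a relative that acts on sphingoid bases, read 7450 and 6545 (-0.19). All 5 desaturases above the filter thus read lower, Fads1 barely, beside 62.3% of all genes. Their median of -0.07 lay next to that of all genes, -0.06, and 3 of the 5 were under the latter. The sign of Scd1 and of Fads1 turned with the scaling.

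Elongation was the step in which no member above the filter read lower, of 3 counted, beside 62.3% of all genes. Elovl6, which extends palmitate to stearate, read 1389 in Oma1_WT and 1606 in Oma1_KO (0.21). Elovl5, an elongase of polyunsaturated chains, read 2209 and 2319 (0.07), and Elovl1, an elongase of very long saturated chains, 2350 and 2366 (0.01). The median of the 3 was 0.07, and it was 0.13 when centred on the median gene. Elovl2, a further elongase of polyunsaturated chains that is known from liver, read 33 and 59, a difference of 0.82 and the largest in size among the 40 measured members. Both of its values were under the filter, and with a pseudocount of 16 the difference was 0.61. Elovl7, an elongase of saturated chains, was also under the filter, at 49 and 43 (-0.18).

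Of the acyl-CoA synthetases, 3 were measured and 2 passed the filter. Acsl4, which prefers arachidonate and related fatty acids, read 581 and 475 (-0.29, 1.22-fold lower). Acsl5, found on mitochondria and the endoplasmic reticulum, read 642 and 678 (0.08). Acsl6, known from brain, was under the filter at 42 and 46. With Acsl1 and Acsl3 without a value of their own, the step's median of -0.11 rested on Acsl4 and Acsl5, which lay on opposite sides of 0, and it was 0.08 with Acsl6 counted.

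**Figure D2:**
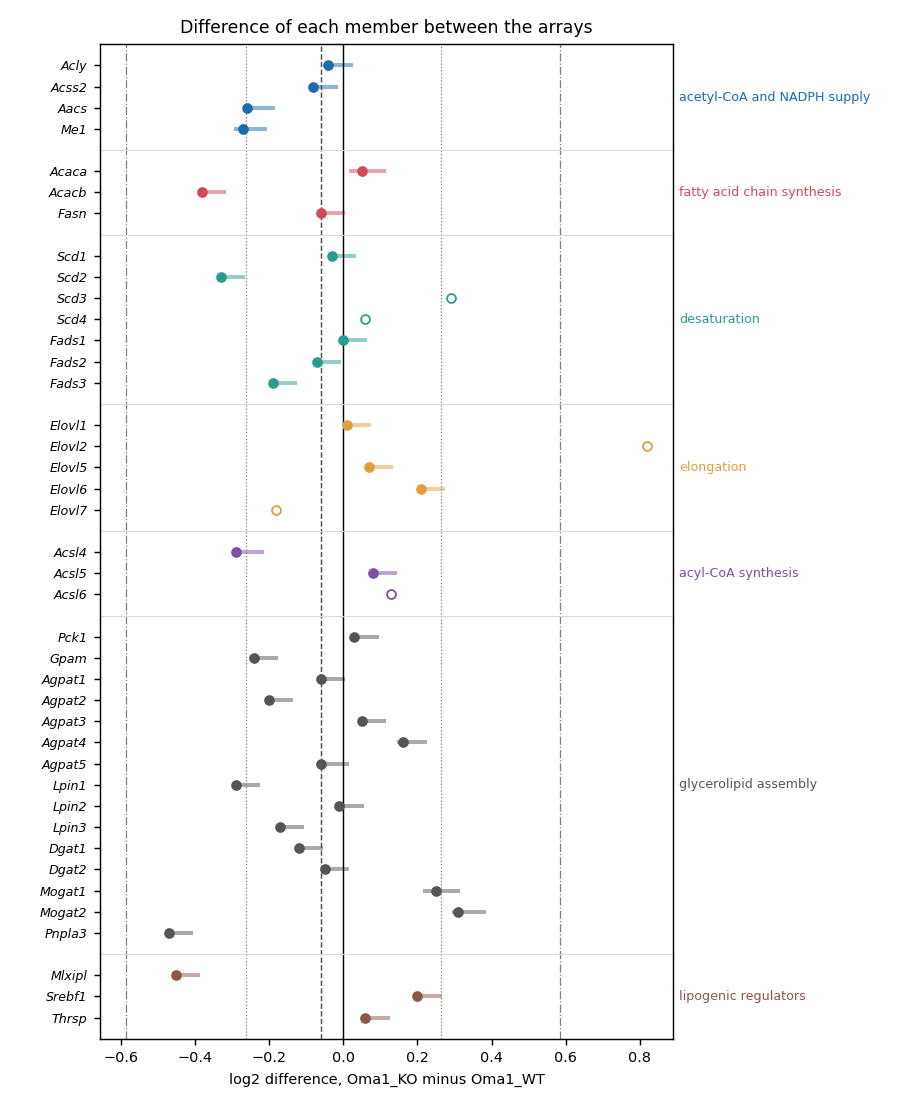
Log2 difference in intensity, Oma1_KO minus Oma1_WT, of each member by step; filled points passed the intensity filter, open points did not, and the thick lines give the range over 5 alternatives of scaling, pseudocount and probe set choice. Dotted lines mark 1.2-fold, dash-dotted lines 1.5-fold, the solid line 0 and the dashed line the median of all genes above the filter, -0.06; Elovl2 alone lies past 1.5-fold, and it is an open point.

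In glycerolipid assembly 10 of 15 members read lower (66.7%, beside 62.3% of all genes) and 5 higher. The median was -0.06, the same as over all genes. Pck1, the cytosolic carboxykinase that fat uses to make glycerol 3-phosphate, read 2624 and 2672 (0.03). Gpam, the mitochondrial enzyme that attaches the first acyl chain, read 2344 and 1979 (-0.24). The next acylation, which gives phosphatidic acid, is carried out by the Agpat enzymes. Agpat2, whose loss is known to cause lipodystrophy, read 9162 and 7959 (-0.20), and Agpat1 read 682 and 654 (-0.06). Agpat3, Agpat4 and Agpat5, related acyltransferases, read 1567 and 1624 (0.05), 151 and 169 (0.16), and 451 and 432 (-0.06). The difference of Agpat2 was -0.15 after quantile normalisation and -0.14 when centred on the median gene, and that of Agpat4 was 0.21 and 0.22. The values of Agpat1 and Agpat5 turned from lower to 0.00 and 0.01 after a loess correction.

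The lipins remove the phosphate of phosphatidic acid to give diacylglycerol. Lpin1, the lipin best known from fat, read 3302 in Oma1_WT and 2695 in Oma1_KO, a difference of -0.29 (1.23-fold lower), and -0.23 when centred on the median gene. Lpin2 read 237 and 235 (-0.01, or 0.05 after quantile normalisation), and Lpin3 117 and 104 (-0.17). Lpin1 was thus the lipin past the 1.2-fold size. Both enzymes that add the last acyl chain were close on the arrays. Dgat1 read 2510 and 2304 (-0.12), and Dgat2 read 11992 and 11614 (-0.05, or 0.01 when centred on the median gene).

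The monoacylglycerol acyltransferases acylate monoacylglycerol rather than glycerol 3-phosphate. Both members of this kind read higher, beside 36.6% of all genes above the filter. Mogat2, known from the intestine, read 351 in Oma1_WT and 435 in Oma1_KO, a difference of 0.31 (fold 1.24), and 94.6% of all genes above the filter had a lower difference. Mogat1 read 115 and 137 (0.25), and it was past the 1.2-fold size with centring on the median gene, at 0.31, and after quantile normalisation, at 0.28. Pnpla3, a lipid droplet protein related to the fat cell's triglyceride lipase, whose transcript is known to follow lipogenic feeding, read 3375 and 2440. Its difference of -0.47 (1.38-fold lower) was the lowest of all members, and 3.8% of all genes above the filter had a lower one.

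Markers of hepatocytes, a cell type that uses many of these enzymes, also read higher. Of 10 measured hepatocyte markers 9 read higher in Oma1_KO, and their summed intensity was 3964 in Oma1_WT and 9117 in Oma1_KO. Alb, which encodes albumin, read 1692 and 4523, and Apoa1, an apolipoprotein, 253 and 904. Of the 10 markers 9 passed the intensity filter, and 8 of these read higher (88.9%, beside 36.6% of all genes above it). Apoh, at 72 and 137, passed only through the Oma1_KO array. The part of hepatocyte transcripts in the values of Elovl2, Mogat1 and Mogat2 was not tested. White adipocyte markers read lower in 7 of 9 (77.8%, beside 62.3% of all genes above the filter). Their median was -0.11, beside -0.06 over all genes, and their summed intensity was 59915 and 53533. Pnpla2, the triglyceride lipase of fat, read 6769 and 5540 (-0.29). Fewer adipocytes in a sample and less of a transcript per adipocyte cannot be told apart in tissue RNA, and the part of either in the lower members was not tested.

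Macrophage, endothelial and mesothelial markers had list medians further from 0 than the synthesis genes. Of all genes above the filter 62.3% read lower and 36.6% higher, with a median of -0.06. With no intensity filter 47.9% of all genes read lower, with a median of 0.00, and counts over all markers of a list compare with these. Of 12 macrophage markers 11 read higher (median 0.29, summed intensity 35132 and 41642), with Fcgr1, an immunoglobulin receptor, at 308 and 503 and Trem2, a lipid receptor, at 1553 and 2241. All 9 endothelial markers read lower (median -0.38, summed intensity 11576 and 8947), with Robo4 at 544 and 347 and Gpihbp1, which holds lipoprotein lipase on capillaries, at 1008 and 735. Of 8 mesothelial markers 7 read lower (summed intensity 2299 and 1563), and of the 7 above the filter 6 did. Among these were Upk3b at 773 and 455 and Lrrn4 at 395 and 238. Of the 9 brown adipocyte markers 4 passed the filter, 2 lower and 2 higher, and over all 9 there were 4 lower, 4 higher and a median of 0.00. Cidea, a lipid droplet protein, read 84 and 213, and Ucp1, the uncoupling protein, was under the filter at 38 and 55. Of 8 muscle markers 3 passed, and over all 8 there were 3 lower, 5 higher and a median of 0.03. Tnnt3, at 77 and 90, passed only through the Oma1_KO array, while Pvalb, under the filter, read 44 and 110. Of the 7 measured markers of glandular epithelium 0 passed, and 4 read lower and 3 higher, with Epcam at 40 and 26 and Csn2, a milk protein, at 20 and 27.

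**Figure D3:**
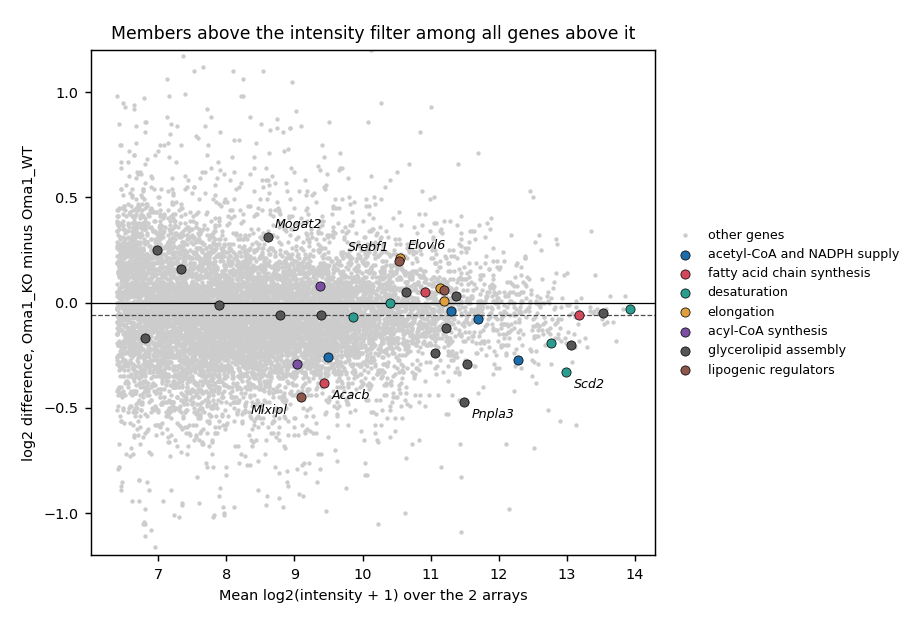
Log2 difference, Oma1_KO minus Oma1_WT, against the mean log2(intensity + 1) of both arrays, for the 35 members above the filter (coloured by step) and all other genes above it (grey; 36 of these lie past the axis limit of 1.2). The members lie within the cloud of all genes, from Pnpla3 at -0.47 to Mogat2 at 0.31; the dashed line is the median of all genes, -0.06.

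Genes of the same pathway outside the 42 were described from lists of their own. Of 51 such genes 46 had a value and 40 passed the filter, of which 26 read lower (65%, beside 62.3% of all genes), 13 higher and 1 equal. Their median was -0.10, beside -0.06 over all genes. The split was 23 lower and 17 higher after quantile normalisation, beside 52.6% of all genes lower. At least 1.2-fold lower were 7 (17.5%, beside 14.6% of all genes) and at least 1.2-fold higher 1 (2.5%, beside 7.13%). None of the 40 reached 1.5-fold.

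The other enzymes of the elongation cycle read lower or near 0. After an elongase has added its carbon units, Hsd17b12, a ketoacyl reductase, read 2037 and 1628 (-0.32), and Hacd2, a dehydratase, had 2 probe sets with 7223 and 2581 in Oma1_WT and 5820 and 2004 in Oma1_KO, differences of -0.31 and -0.36. Tecr, also an enzyme of the cycle, read 6173 and 5266 (-0.23). Hacd3, another dehydratase of the family, read 405 and 417 (0.04), and Hacd4 346 and 344 (-0.01). The 2 probe sets of Hacd1 lay on opposite sides, at -0.11 and 0.11. Of 6 genes of this list above the filter 5 read lower (83.3%, beside 62.3% of all genes) and 1 higher. Their median was -0.12, beside -0.06 over all genes. Elovl3, an elongase of brown fat and skin, was under the filter at 51 and 46.

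Genes that handle acyl-CoA outside the members had a median of -0.19 over 9 genes, 6 lower (66.7%, beside 62.3% of all genes) and 3 higher. Acss3, a mitochondrial acyl-CoA synthetase of short chains, read 619 in Oma1_WT and 423 in Oma1_KO (-0.55). Acsbg1, a synthetase of long chains, read 136 and 98 (-0.47), and Slc27a1, a fatty acid transport protein with synthetase activity, 3184 and 2312 (-0.46). Acot2, a mitochondrial thioesterase that releases fatty acids from acyl-CoA, read 791 and 1020 (0.37). Acot2 and its copy Acot1 are near-identical in sequence, so the identity of that signal is uncertain. The probe set named for Acot1 read 42 and 43, under the filter on both arrays, and signal shared between them was not tested.

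Cytosolic carbon and NADPH supply read lower in 7 of 8 genes (87.5%, beside 62.3% of all genes), with a median of -0.14 and none past 1.2-fold. Slc25a1, the carrier that exports citrate from mitochondria, read 6160 and 5506 (-0.16). Of the acyltransferases, Gpat3, which attaches the first acyl chain in the endoplasmic reticulum of fat cells, read 629 and 540 (-0.22), and Gpat4, another, 326 on both arrays. Gpat3 was at -0.16 after quantile normalisation, within the technical SD of 0.17 of 0.

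Control genes were split, with 6 lower (42.9%, beside 62.3% of all genes) and 8 higher of 14 and a median of 0.03. Insig1, which holds the sterol-regulated factors in the endoplasmic reticulum and is itself induced by them, read 8059 in Oma1_WT and 5654 in Oma1_KO, a difference of -0.51. Nr1h3, the liver X receptor alpha, which activates Srebf1, read 1185 and 980 (-0.27). Pparg, the master factor of fat cell formation, read 4050 and 3721 (-0.12). Srebf1 thus read higher on the same 2 arrays on which Insig1, Nr1h3 and Mlxipl read lower. Insig1, Nr1h3 and Pparg are among the 6 control genes that read lower, and the 8 that read higher are not named here.

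**Figure D4:**
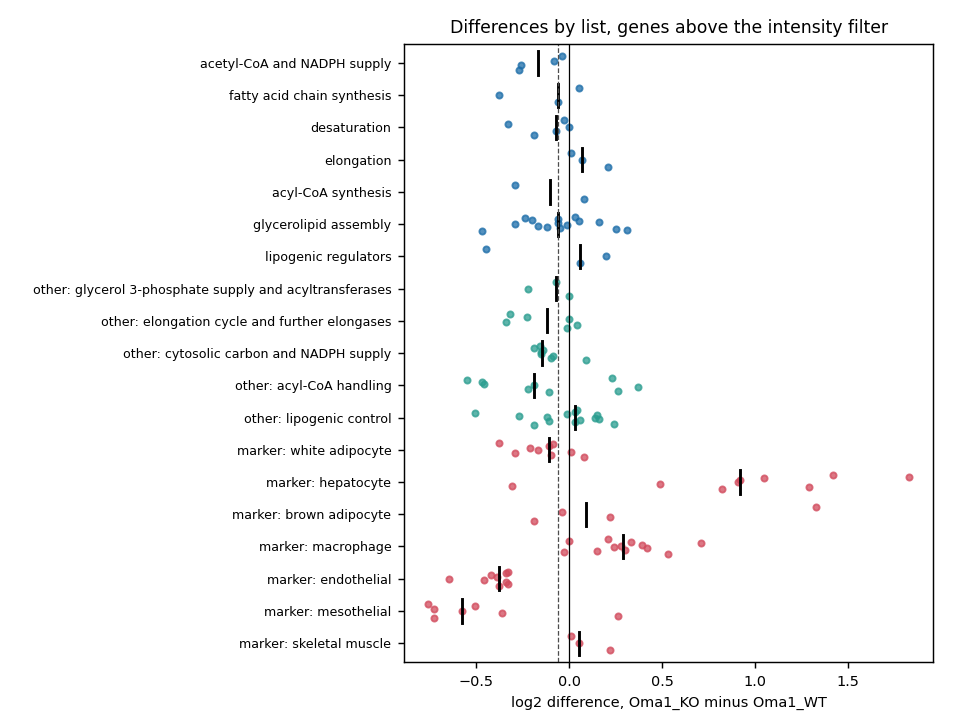
Log2 difference, Oma1_KO minus Oma1_WT, of each gene above the intensity filter (points) with the list median (black bar), for the 7 steps of the members (blue), other genes of the pathway (green) and cell type markers (red); the dashed line is the median of all genes, -0.06. Medians of the steps run from -0.17 to 0.07, and those of the hepatocyte and mesothelial markers are 0.92 and -0.58. The hepatocyte median is the value of Apoh, which passed the filter only through the Oma1_KO array. Over all 10 measured hepatocyte markers, with no filter, it is 0.91.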

How the data were processed

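The study measured RNA of white adipose tissue on 2 arrays, 1 per genotype. The authors deposited 1 linear intensity per probe set and array, rounded to whole numbers, with medians of 83 and 83 and upper quartiles of 335 and 318; the sources used here name no software, background correction or scaling. GEO's annotation of the platform named the probe sets and gave 1 symbol for 21789 of 35512 probe sets, several for 1621 and none for 12102. Symbols were checked against RefSeq's gene table of GRCm38.p6, which held the gene identifier of 21698 of the 21789; of its coordinates, only those of the upstream sequences are printed.

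Intensities were taken as log2(intensity + 1), probe sets of a gene were averaged, and genes were kept whose mean reached the array-wide median (11399 genes, 57.2%). No further normalisation was applied. With 1 array per group no test was made; the small number of arrays sets the precision. The code was tested on simulated data. The members, lists, fold sizes and alternatives were chosen with earlier results of these data known. Named were all members, the 8 other pathway genes above the filter with the largest absolute difference, 7 fixed ones (Gpat3, Gpat4, Slc25a1, Elovl3, Nr1h3, Pparg, Insig1), up to 2 markers per list with the largest absolute difference, Adipoq, Alb and Oma1. Tecr, Hacd1, Hacd3, Hacd4, Acot1 and Apoh were named outside this rule, with their values known. Upstream sequences were searched for exact motif letters on both strands. Alternatives were quantile normalisation, a loess correction (span 0.3), centring on the median gene, a pseudocount of 16, the brightest probe set and other intensity filters. Python 3.11.15, numpy 2.4.6, pandas 2.3.3, statsmodels 0.14.6 and matplotlib 3.10.9 were used.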

Additional observations from a re-analysis of the deposited data

How the results depend on the processing

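No paired analysis was possible because each genotype had 1 array, and none could be left out. The median of the members ran from -0.06 to 0.00 over 9 alternatives, of which the filter on the Oma1_WT array was added after seeing the data. Of the 35 members above the filter, 28 had the same sign under all 5 alternatives of scaling, pseudocount and probe set choice, and 7 did not. The same count was not made over all genes, so it does not set the members apart from them. The 7 members at least 1.2-fold lower became 4 after the loess correction and 4 when centred on the median gene. The share of all genes went from 14.6% to 10.8% and 9.61%. The 1 member at least 1.2-fold higher became 2 after quantile normalisation, 4 when centred and 3 with no intensity filter. The share of all genes went from 7.13% to 9.64%, 10.9% and 10.3%. With no intensity filter 1 member, Elovl2, was at least 1.5-fold higher in place of 0, and the median of acyl-CoA synthesis turned from -0.11 to 0.08 because Acsl6 entered. Of the other pathway genes, the 13 that read higher became 8 with the filter at the upper quartile, where fewer genes were counted. The 1 at least 1.2-fold higher became 4 after quantile normalisation, 3 after loess, 4 when centred and 3 with no intensity filter. Of all genes, 9.64%, 9.34%, 10.9% and 10.3% were at least 1.2-fold higher under these settings. Values under the filter, such as those of Elovl2, Scd3 and Acsl6, are limited by signal over background, for which no detection call was used.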

Other observations

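Some members are neighbours in the genome. In RefSeq's gene order 9 of the 42 lie on chromosome 19, where Fads3, Fads2 and Fads1 follow each other with 0 protein-coding genes between them, as do Scd3, Scd2, Scd4 and Scd1. The differences of Fads3, Fads2 and Fads1 were -0.19, -0.07 and -0.00, and those of Scd2 and Scd1 were -0.33 and -0.03, while Scd3 and Scd4 were under the intensity filter. On chromosome 7 Dgat2 and Mogat2 are direct neighbours with 0 protein-coding genes between them, and Dgat2 read 11992 and 11614 (-0.05) while Mogat2 read 351 and 435 (0.31). Differences between neighbours were not tested, since each genotype had 1 array.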
